A study of Mus musculus with 6 samples.

Results

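The core pluripotency factors followed here are 10 genes, namely Pou5f1, Sox2, Nanog, Klf2, Klf4, Esrrb, Tfcp2l1, Sall4, Lin28a and L1td1. They were chosen by gene symbol from a table of 16862 genes. Of the 10 symbols, 9 were found as written and 1, Tcfcp2l1, was found under its current symbol Tfcp2l1, and all 10 passed the filter on low values. RNA sequencing had been carried out on whole male gonads of C57BL/6 mouse embryos at stage E13.5, counted in days after conception, in 3 libraries from L/H-Pgds-/- embryos (KO), which lack both the lipocalin-type and the hematopoietic-type prostaglandin D synthase, and 3 libraries from wild-type embryos (WT). Libraries keep their label numbers, 5, 7 and 8 for KO and 1, 3 and 4 for WT. The labels speak of 6 different littermates and do not say which embryos shared a litter, so p-values measure the spread between these libraries. All cells of the gonad were sequenced together, and for every gene below a lower number of cells of a type and less RNA per cell cannot be told apart.

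In the embryo and in embryonic stem cells, OCT4 (encoded by Pou5f1) and SOX2 bind DNA side by side and, together with NANOG, keep each other's genes active. Around this core, KLF2, KLF4, ESRRB and TFCP2L1 hold cells in the naive state of pluripotency, SALL4 links OCT4 to chromatin repressors, and LIN28A blocks maturation of the let-7 microRNAs. Mouse primordial germ cells take up much of this programme again, and in the fetal testis germ cells switch it off as they enter mitotic arrest and commit to the male fate.

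The gene starts of Nanog, Sox2 and Pou5f1 are shown because the core factors are known to act on each other's genes. Each is printed as the 250 bases before the annotated start, 5′ to 3′ on the plus strand, from RefSeq on GRCm38.p6. Capitals mark matches on either strand to the octamer core ATGCAAA bound by OCT4, the SOX core CATTGT, their composite (CATTGT, any 1 base, then ATGCAAA), and the KLF-type box CCACCC. The composite holds an octamer core and a SOX core within itself. The full octamer (the core followed by T), an ESRRB motif (TCA then AGGTCA) and a TFCP2L1 pair (CCAG, any 6 bases, CCAG) were searched too. They had no match in the windows of the 9 factors that had a window, and occurred in 1.6%, 0.387% and 2.78% of all windows.
Nanog, chr6:122707239-122707488: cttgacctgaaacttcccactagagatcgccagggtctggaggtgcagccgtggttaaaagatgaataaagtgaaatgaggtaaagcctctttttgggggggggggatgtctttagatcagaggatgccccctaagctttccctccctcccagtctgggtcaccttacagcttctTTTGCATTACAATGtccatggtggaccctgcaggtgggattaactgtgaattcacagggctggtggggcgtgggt
Sox2, chr3:34649745-34649994: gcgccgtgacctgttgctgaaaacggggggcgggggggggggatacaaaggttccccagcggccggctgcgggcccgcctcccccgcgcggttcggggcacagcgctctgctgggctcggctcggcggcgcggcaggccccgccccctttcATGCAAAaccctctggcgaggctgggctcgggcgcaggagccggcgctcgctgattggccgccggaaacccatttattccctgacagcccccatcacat
Pou5f1, chr17:35505782-35506031: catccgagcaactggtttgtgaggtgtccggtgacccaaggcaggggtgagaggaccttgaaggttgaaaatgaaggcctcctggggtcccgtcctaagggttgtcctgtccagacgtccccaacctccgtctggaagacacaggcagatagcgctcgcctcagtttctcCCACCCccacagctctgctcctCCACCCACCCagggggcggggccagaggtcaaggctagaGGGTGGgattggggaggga
In Nanog the composite lies on the minus strand from base -75 to base -62 before the start. Of 32851 promoter windows of this length, 2 held the composite (0.00609%), and both were windows of Nanog, whose second annotated start lies just downstream of the first. The Sox2 window held an octamer core from -99 to -93, a motif present in 4.12% of all windows. The Pou5f1 window held 4 CCACCC boxes, between -80 and -14, 2 of which share bases, and 28.1% of all windows held at least 1. A second annotated Pou5f1 start, not printed, has a SOX core from -158 to -153. The SOX core occurred in 10.7% of windows. A match describes letters only, and binding was not measured. Promoter windows were found for 9 of the 10 genes, the exception being Sall4.

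Ptgds, which encodes the lipocalin-type enzyme, held 15.2, 4.0 and 2.94 in the KO libraries and between 6560 and 8712 in the WT libraries. Hpgds averaged 92.9 ± 9.32 in KO and 49.2 ± 5.21 in WT (SD, n = 3 each), but the labels do not give its deleted part, so its value does not check the genotype. Values are upper-quartile normalised pseudo-counts as deposited, summing to between 21657342 and 23734462 per library. The sums follow from the normalisation, so the sequencing depth is unknown. All tests are limma's moderated test on log2(value + 1), and a gene passed when its p, adjusted by Benjamini-Hochberg across the 15116 genes above the filter, was under 0.05. Of these genes 34.3% passed, 17.3% higher and 17% lower in KO. Scaled to equal totals, 67.5% of called genes were higher, against 50.4% with the values as deposited. KO and WT libraries lay fully apart for 50.3% of genes. The mean log2 level of 12 general germ cell markers was 9.19, 9.67 and 9.18 in KO libraries 5, 7 and 8. It was 10.30, 8.92 and 9.33 in WT libraries 1, 3 and 4, so WT library 1 stood apart on this mean. The markers were uneven in this. Tex101 held 426 in WT library 1 and 36.0 to 87.4 in the others, while Ddx4 and Dazl were highest in KO library 7. Mael, Tdrd9, Nanos3, Dnd1, Mov10l1, Tdrd12 and Piwil2 were also highest in WT library 1, and Stk31 and Rnf17 in KO library 7. The summed markers were 30403 in KO library 7 and 25283 in WT library 1.

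Of the 10 factors, 3 rose in KO gonads, namely Sox2, Klf4 and L1td1. In limma's test 0 fell, with Pou5f1 and Klf2 lower at an unadjusted p under 0.05. The share of all genes past the same test was 34.3% in either direction, 17.3% higher and 17% lower in KO. Thus 3 of 10 called is near the share in either direction. As all 3 were higher, their own share is above 17.3%, a difference that was not tested over these 10 genes. The KO libraries lay wholly above the WT libraries for these 3 genes and wholly below them for Klf2, while the other 6 overlapped. Of all genes, 24.7% lay wholly above and 25.6% wholly below. With 1 library left out, Sox2 alone passed without KO library 5 or KO library 7. The median log2 change was 0.21 for the 10 factors and -0.03 for all genes tested.

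**Figure D1:**
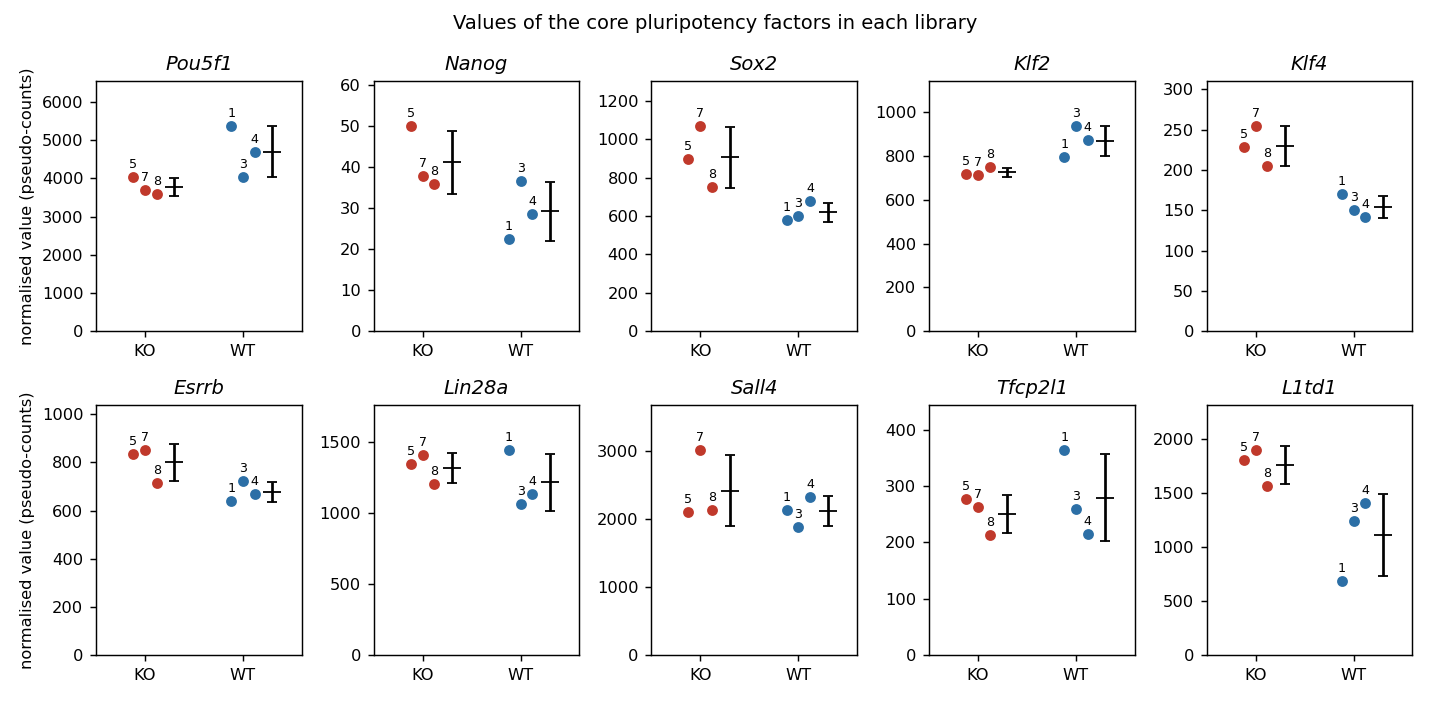
Normalised value of each factor (vertical axis, pseudo-counts, from 0) in the 3 KO libraries (red, left) and the 3 WT libraries (blue, right), with library numbers beside the points and the mean ± SD as a black bar. Sox2, Klf4 and L1td1 lie higher in every KO library than in any WT library, Klf2 lies lower, and WT library 1 is the lowest of 6 for L1td1, Sox2, Nanog and Esrrb.

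Pou5f1 (NCBI gene 18999; chromosome 17, 35642977 to 35647722 in mm9) had the highest value of the 10 in every library. It held 4047, 3701 and 3579 in KO libraries 5, 7 and 8, and 5366, 4024 and 4694 in WT libraries 1, 3 and 4. The highest KO library and the lowest WT library were nearly level, so the groups overlapped. Pou5f1 averaged 3776 ± 243 in KO and 4695 ± 671 in WT (SD, n = 3 each). Its log2 change, KO minus WT, was -0.31 (SE 0.11, adjusted p = 0.0548). Without WT library 3 the adjusted p was 0.0163. Pou5f1 has processed pseudogenes in the mouse genome, and how the authors counted reads shared with them is not given in the sources used here.

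Sox2, the partner of OCT4 on composite sites, lies on chromosome 3 from 34548927 to 34551382. It held 896, 1068 and 752 in KO, and 582, 599 and 676 in WT. Every KO library was above every WT library, with KO library 8 closest to the WT range. The log2 change was 0.54 (SE 0.13, adjusted p = 0.0126), or 1.45-fold, with means of 905 ± 158 in KO and 619 ± 50.2 in WT (SD, n = 3 each). Sox2 was the only factor of the 10 that passed with each library left out in turn (adjusted p from 0.00789 to 0.0452). The gene lies inside Sox2ot, a long non-coding RNA gene, and whether counting used strand is not given in the sources used here. Sox2ot averaged 24.3 ± 6.61 in KO and 16.4 ± 6.38 in WT (SD, n = 3 each; adjusted p = 0.264).

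Nanog, the homeodomain factor of the core, had the lowest value of the 10 in every library. Its row spans chromosome 6 from 122657586 to 122663796. The values were 49.96, 37.7 and 35.9 in KO and 22.4, 36.7 and 28.5 in WT. WT library 3 reached into the KO range, and WT library 1 was the lowest of all. The log2 change of 0.49 (SE 0.29, 95% interval -0.15 to 1.14, adjusted p = 0.211) did not pass, and the interval covers a change larger than that of Sox2. Nanog too has processed pseudogenes.

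Among the naive-state factors, Klf4 rose and Klf2 had values in the other direction, although both encode Krüppel-like zinc finger proteins that can stand in for each other in mouse embryonic stem cells. Klf4 (chromosome 4, 55540009 to 55545347) held 229, 254 and 205 in KO and 170, 150 and 142 in WT, with the groups fully apart. Its log2 change was 0.57 (SE 0.16, adjusted p = 0.0182), or 1.48-fold. The call ended without KO library 5 (adjusted p = 0.0637), KO library 7 (0.0622) or WT library 4 (0.0701). Klf2 (chromosome 8, 74842961 to 74845553) held 717, 713 and 750 in KO and 796, 936 and 875 in WT, again with no overlap. Its log2 change was -0.26 (SE 0.10, adjusted p = 0.0706), which did not pass. The spread among KO libraries was the smallest of the 10 factors for Klf2, with an SD of 2.78% of the mean.

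Both genes are also expressed outside germ cells, Klf2 in endothelium and both among the genes that respond quickly to stimulation. Of 11 immediate early genes tested, 1 fell in KO, Ier2 (log2 -0.37, adjusted p = 0.0455), and in limma's test 0 rose, also at an unadjusted p under 0.05. Their summed value lay between 7357 and 8252 in KO and between 7466 and 8360 in WT. Of 10 endothelial markers, 1 rose and 3 fell. For the immediate early genes and the endothelial markers alike, the share of all genes was 17.3% higher and 17% lower. Kdr, a receptor for VEGF, rose by 0.79 on the log2 scale, while Egfl7, Esam and Emcn fell by 0.46, 0.37 and 0.35. The summed endothelial values were 11457 to 13252 in KO and 10815 to 14132 in WT. With KO library 7, KO library 8, WT library 3 or WT library 4 left out, 1 endothelial marker fell, and the call of Ier2 ended without KO library 5, KO library 7, WT library 3 or WT library 4. With the length and GC trend removed, the log2 change of Ier2 was 0.16 (adjusted p = 0.320) and Nr4a1 was higher (0.43, adjusted p = 0.0351). Among the endothelial markers Egfl7 (0.07, adjusted p = 0.568) and Esam (-0.05, adjusted p = 0.821) no longer passed, while Kdr (0.49) and Emcn (-0.53) did. The part of these cell types in the values of Klf2 and Klf4 was not tested.

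Esrrb, an orphan nuclear receptor that works with OCT4 in stem cells, spans chromosome 12 from 87702067 to 87862578. It held 834, 853 and 714 in KO and 640, 723 and 669 in WT. Only WT library 3 reached above the lowest KO library. The log2 change was 0.24 (SE 0.11, adjusted p = 0.115). Tfcp2l1, a Grainyhead-family factor of naive stem cells that is also expressed in kidney tubules, spans chromosome 1 from 120524522 to 120581745. It held 278, 262 and 213 in KO and 364, 258 and 214 in WT. The groups overlapped and WT library 1 was far above the others. The log2 change was -0.13 (SE 0.20, adjusted p = 0.649) with all libraries and 0.08 without WT library 1.

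Sall4, a zinc finger factor that germ cells need, lies on chromosome 2 from 168573832 to 168592701. It held 2099, 3021 and 2139 in KO and 2140, 1881 and 2321 in WT. KO library 7 was high and the other 5 libraries were intermixed, which left a log2 change of 0.18 (SE 0.14, adjusted p = 0.351). KO library 7 also had the highest values of Dazl (16154) and Ddx4 (4723), RNA-binding and helicase proteins of germ cells. Lin28a, the let-7 blocker, lies on chromosome 4 from 133559245 to 133574731. Its values were 1343, 1406 and 1202 in KO and 1444, 1063 and 1136 in WT. WT library 1 was the highest and the other WT libraries the lowest, with a log2 change of 0.13 (SE 0.12, 95% interval -0.15 to 0.40, adjusted p = 0.449).

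L1td1, which encodes an RNA-binding protein descended from a LINE-1 element and found with LIN28 in human embryonic stem cells, had the highest log2 change of the 10 on the values as deposited with all libraries, but not without WT library 1 or with the length and GC trend removed. It lies on chromosome 4 from 98393445 to 98405177. The values were 1805, 1895 and 1563 in KO and 680, 1233 and 1406 in WT. The groups did not overlap, and WT library 1 held the lowest value by far. The log2 change was 0.73 (SE 0.22, adjusted p = 0.0293), or 1.65-fold, and 0.41 without WT library 1. The call ended without KO library 5 (adjusted p = 0.0858) or KO library 7 (0.0878).

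WT library 1, with the highest mean log2 level of germ cell markers, did not carry more of every factor. It was the highest of 6 libraries for Pou5f1, Lin28a and Tfcp2l1, at 1.23, 1.31 and 1.54 times the mean of WT libraries 3 and 4. It was the lowest of 6 for L1td1, Nanog, Esrrb and Sox2, at 0.515, 0.686, 0.920 and 0.912 times that mean. For Sall4 the ratio was 1.02, for Klf4 1.16 and for Klf2 0.879. These ratios describe 1 library and carry no test. Nanos2, from the list of genes known to repress Pou5f1 or Nanog, held 798 in WT library 1 and 37.4 to 108 in the others. It is named here after its values were seen, and its part in these ratios was not tested.

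A factor's level can also be read within a library, which removes any difference in how libraries were scaled. Relative to the mean log2 level of the 12 general germ cell markers, 2 of the 10 factors had all KO libraries above all WT libraries, Sox2 and Klf4, as did 5.67% of all genes on the same base. Each marker weighs equally in this base, so it does not measure the number of germ cells. It was highest in WT library 1, although the summed markers were highest in KO library 7. With 3 libraries against 3, an exact permutation test cannot go below p = 0.1, so these ratios are given as values. The log2 ratio of Sox2 was 0.62, 0.40 and 0.37 in KO and -1.11, 0.30 and 0.07 in WT. That of Klf4 was -1.35, -1.67 and -1.50 in KO and -2.88, -1.68 and -2.17 in WT. The KO minus WT difference in the ratio was 0.71 for Sox2 and 0.74 for Klf4 with WT library 1, and 0.28 and 0.42 without it, still with no overlap. Without WT library 1, the ratios of Pou5f1 and Klf2 lay wholly below WT, by 0.42 and 0.53 on the log2 scale. Of all genes, 29.7% then lay wholly below and 5.86% wholly above, so 2 of 10 below is not more than the background share. With the length and GC trend also removed, the ratios of Pou5f1 and Klf2 overlapped between groups, with differences of 0.14 and -0.02. Sall4 had nearly the same ratio in KO libraries 5, 7 and 8, at 1.85, 1.90 and 1.88, against 0.77, 1.95 and 1.85 in WT libraries 1, 3 and 4. Fitted across all genes with every library scaled to these markers, 0 of the 10 factors passed limma's test, and 0 had an unadjusted p under 0.05. The log2 changes were then 0.71 for Sox2 (SE 0.51), 0.74 for Klf4 (SE 0.49), 0.90 for L1td1 (SE 0.51) and -0.13 for Pou5f1 (SE 0.52). With the values as deposited, the SEs of these genes were 0.13, 0.16, 0.22 and 0.11 in that order.

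Relative to Pou5f1, 7 of the other 9 factors had all KO libraries above all WT libraries, the exceptions being Klf2 and Tfcp2l1. Pou5f1 itself had lower values in KO, and 36.9% of all genes lay wholly above on this base too. The log2 ratio of Sox2 to Pou5f1 was -2.17, -1.79 and -2.25 in KO and -3.203, -2.75 and -2.79 in WT. The ratio of L1td1 to Pou5f1 was higher by 1.03, that of Klf4 by 0.87, that of Sox2 by 0.84, that of Nanog by 0.80, and those of Esrrb, Sall4 and Lin28a by 0.54, 0.49 and 0.43. All 9 ratios share Pou5f1, so they are not separate observations of it. The same 7 did not overlap without WT library 1, where 38.6% of all genes lay wholly above.

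**Figure D2:**
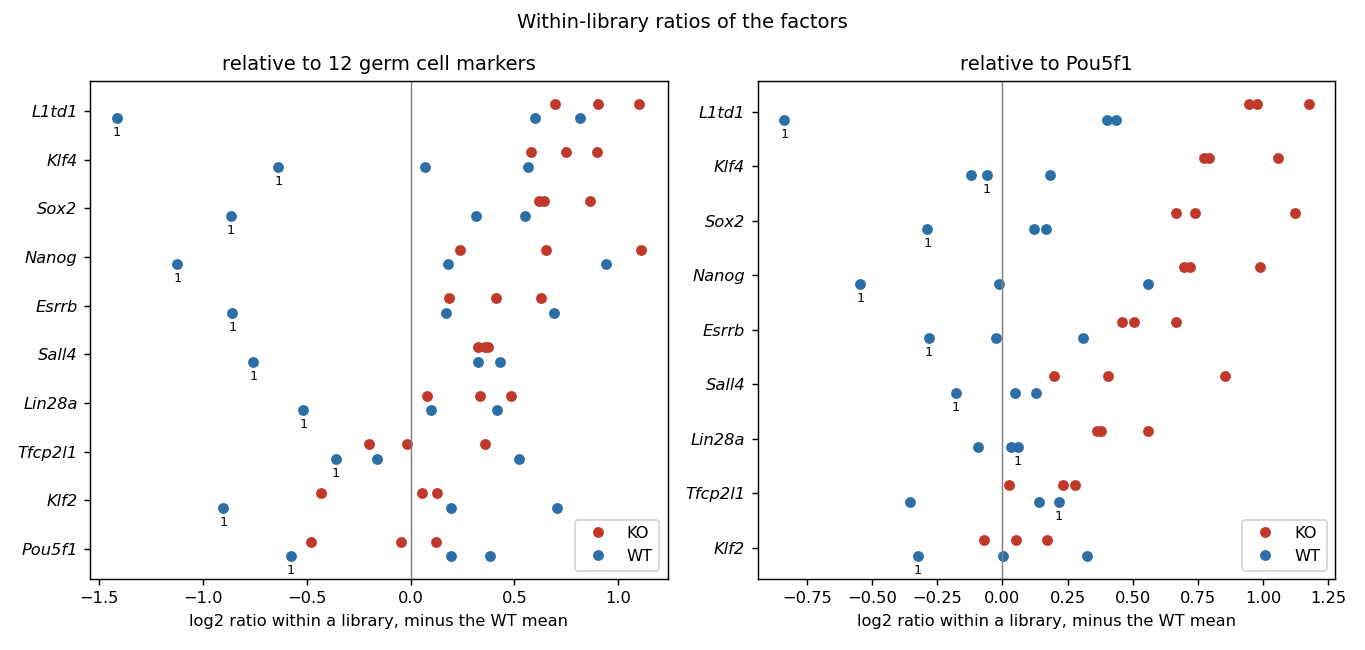
Log2 ratio of each factor within each library, minus the WT mean of that ratio (horizontal axis), to the mean of 12 germ cell markers (left panel) and to Pou5f1 (right panel), with KO libraries in red above WT libraries in blue and WT library 1 numbered. In the left panel WT library 1 lies left of every other library for 10 of 10 factors, and in the right panel 7 of 9 factors have all KO points to the right of all WT points.

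The ratios to Pou5f1 moved with transcript length and base composition. Pou5f1 and Klf2 have short, GC-rich transcripts, of 1362 nt with 57.6% GC and 1847 nt with 61.6% GC in GENCODE vM21, and Tfcp2l1 has the longest of the 10, at 9269 nt with 47.0% GC. When the trend of the log2 values on length and GC content was removed in each library, the log2 change of Pou5f1 turned to 0.22 (SE 0.09, adjusted p = 0.145) and that of Klf2 to 0.21 (SE 0.10, adjusted p = 0.214). That of Tfcp2l1 moved to -0.59 (SE 0.20, adjusted p = 0.0877). The trend thus took -0.52, -0.46 and 0.47 of the log2 change of Pou5f1, Klf2 and Tfcp2l1, against -0.17 to 0.11 for the other 7. Of all genes, 12.7% passed after removal, 6.08% higher in KO.

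Sox2 and Klf4 were the 2 of 10 factors past the threshold with the trend removed, with log2 changes of 0.71 each (SE 0.13, adjusted p = 0.00969 for Sox2; SE 0.16, adjusted p = 0.0210 for Klf4). L1td1 kept a similar size without passing, at 0.66 (SE 0.22, adjusted p = 0.0867). With WT library 1 also left out, Sox2, Klf4, L1td1 and Pou5f1 passed, all higher in KO, Pou5f1 by 0.30 (SE 0.08, adjusted p = 0.0423) and L1td1 by 0.34 (SE 0.09, adjusted p = 0.0367), where 11.9% of all genes passed and 5.83% were higher. The direction for Pou5f1 therefore rested on whether the trend was removed. Relative to Pou5f1 with the trend removed, Sox2 and Klf4 still had all KO libraries above WT, by 0.49 each, while Lin28a and Tfcp2l1 lay wholly below, by 0.17 and 0.81 on the log2 scale, and the other 5 overlapped. Of all genes on that base, 3.13% lay wholly above and 29.7% wholly below.

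**Figure D3:**
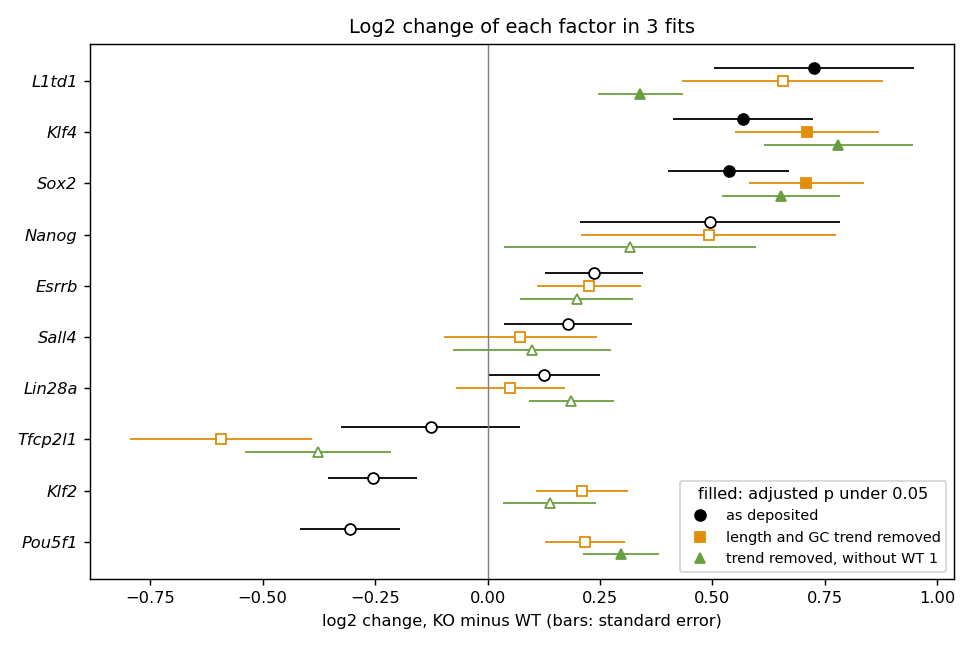
Log2 change of each factor, KO minus WT (horizontal axis), with its standard error, from the values as deposited (black circles), with the length and GC trend removed (orange squares) and with WT library 1 also left out (green triangles); filled symbols passed the threshold. Sox2 and Klf4 are filled and above 0 in all 3 fits, and Pou5f1 and Klf2 change side.

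Levels of different genes were compared per kilobase of the longest protein-coding transcript. Pou5f1 stood far above the rest, at 2772 ± 178 per kilobase in KO and 3447 ± 493 in WT (SD, n = 3 each). Next came a group of 5, L1td1, Sall4, Sox2, Klf2 and Lin28a, between 376 and 596 in KO and between 301 and 471 in WT, in which neighbours in the order overlapped in both genotypes. The order within this group differed between genotypes, with L1td1 at its head in KO (596 ± 58.5) and Klf2 in WT (471 ± 38.0), and the difference in order was not tested. Below it, and apart from each other in their ranges, followed Esrrb (186 ± 17.5 in KO, 158 ± 9.73 in WT), Klf4 (75.7 ± 8.19 in KO, 50.9 ± 4.68 in WT), Tfcp2l1 (27.0 ± 3.66 in KO, 30.1 ± 8.31 in WT) and Nanog (18.6 ± 3.47 in KO, 13.2 ± 3.25 in WT; all SD, n = 3).

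**Figure D4:**
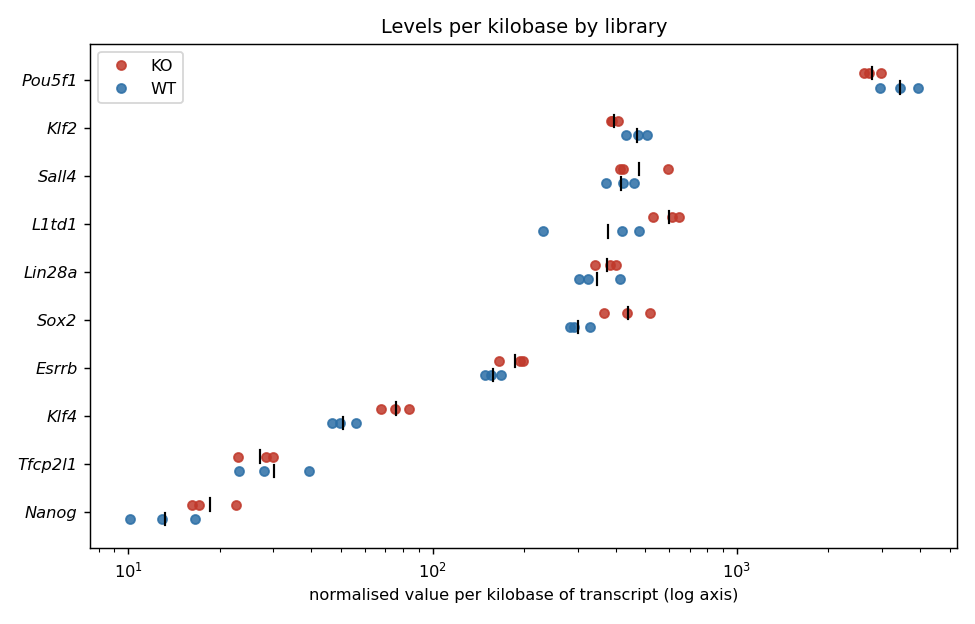
Normalised value per kilobase of transcript (horizontal log axis) of each factor in the KO libraries (red) and WT libraries (blue), with a black tick at each mean; factors run from the highest WT mean at the top to the lowest. Pou5f1 stands alone at the top, with means of 2772 in KO and 3447 in WT, 5 factors share the range from 301 to 596, and Nanog is lowest.

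Over the 6 libraries, the gene whose centred log2 profile was most like that of Pou5f1 among 172 genes of the lists was Utf1 (root mean square difference 0.0708), followed by Csf1r (0.116) and Ehmt2 (0.143), against a spread of Pou5f1 itself of 0.202. For Sox2, with a spread of 0.313, the nearest were Zfp281 (0.0570), Pou2f1 (0.113) and Nr2f2 (0.124). For Klf4, with a spread of 0.308, they were Pim1 (0.0800), Klf15 (0.109) and Nr2f2 (0.114). These are descriptions over 6 libraries that share their genotype groups, made on the values as deposited only. With the length and GC trend removed, the log2 change was 0.22 for Pou5f1, 0.22 for Utf1, -0.54 for Csf1r and -0.14 for Ehmt2. It was 0.71 for Sox2, 0.09 for Zfp281, -0.12 for Pou2f1 and 0.12 for Nr2f2. For Klf4 it was 0.71, for Pim1 0.72 and for Klf15 0.83.

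Among 24 tested partners of the pluripotency network, 7 rose and 2 fell, beside 17.3% and 17% of all genes. Their median log2 change was 0.09, against -0.03 for all genes. Klf5, a further Krüppel-like factor, held 87.8, 132 and 93.0 in KO and 32.3, 34.9 and 65.8 in WT (log2 1.26, SE 0.30, adjusted p = 0.00996). Rif1, a regulator of replication timing first tied to the OCT4 network, averaged 3087 ± 663 in KO and 1410.1 ± 45.5 in WT (log2 1.11, SE 0.13, adjusted p = 0.00117). Tet2, a 5-methylcytosine oxidase, averaged 774 ± 62.5 in KO and 387 ± 84.5 in WT (log2 1.02, SE 0.16, adjusted p = 0.00218; SD, n = 3 each). These 3 also passed with the length and GC trend removed, at 1.14 for Klf5, 0.45 for Rif1 and 0.51 for Tet2, as did Nr0b1 (0.48, adjusted p = 0.0368). Tet1, Nr5a2 and Zfp281 rose by 0.52 to 0.93 and did not pass after that removal. Utf1 and Gdf3 fell, Utf1 with 5200, 4841 and 4887 in KO and 7127, 5455 and 7027 in WT. After removal of the trend Utf1 and Gdf3 did not pass, and the log2 change of Utf1, -0.38 on the values as deposited, was then 0.22 (adjusted p = 0.118). The calls of Utf1 and Gdf3 on the values as deposited ended without KO library 5, KO library 8 or WT library 4. Without KO library 7, 1 partner fell. Foxd3 and Fgf4 were below the filter.

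Lin28a did not pass, but 6 of 13 LIN28 and let-7 genes rose, beside 17.3% of all genes. In limma's test 0 fell, also at an unadjusted p under 0.05. With 1 library left out, 4 to 6 rose. The median log2 change was 0.36. Trim71, a target of let-7 that encodes an RNA-binding ubiquitin ligase, held 98.0, 164 and 159 in KO and 30.6, 32.0 and 30.6 in WT. The 3 WT values were nearly equal and every KO value was at least 3 times as high, giving a log2 change of 2.10 (SE 0.25, adjusted p = 0.00107). Zcchc6 and Zcchc11, the uridylyltransferases TUT7 and TUT4 that act with LIN28 on let-7 precursors, averaged 597 ± 69.5 and 1994 ± 157 in KO, against 234 ± 73.3 and 1106 ± 215 in WT (SD, n = 3 each; log2 1.38 and 0.86, adjusted p = 0.00179 and 0.00195). Dgcr8, of the microprocessor, rose by 0.79, Arid3a by 0.42 and Dicer1 by 0.36. With the trend removed, Trim71 (1.86), Zcchc6 (0.97) and Dgcr8 (0.56) remained past the threshold and the median of the list was 0.01. Of all genes, 6.08% were then higher. Lin28b, the paralog of Lin28a, held 168, 264 and 177 in KO and 178, 108 and 147 in WT (adjusted p = 0.127). Let-7 itself was not measured by this assay.

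**Figure D5:**
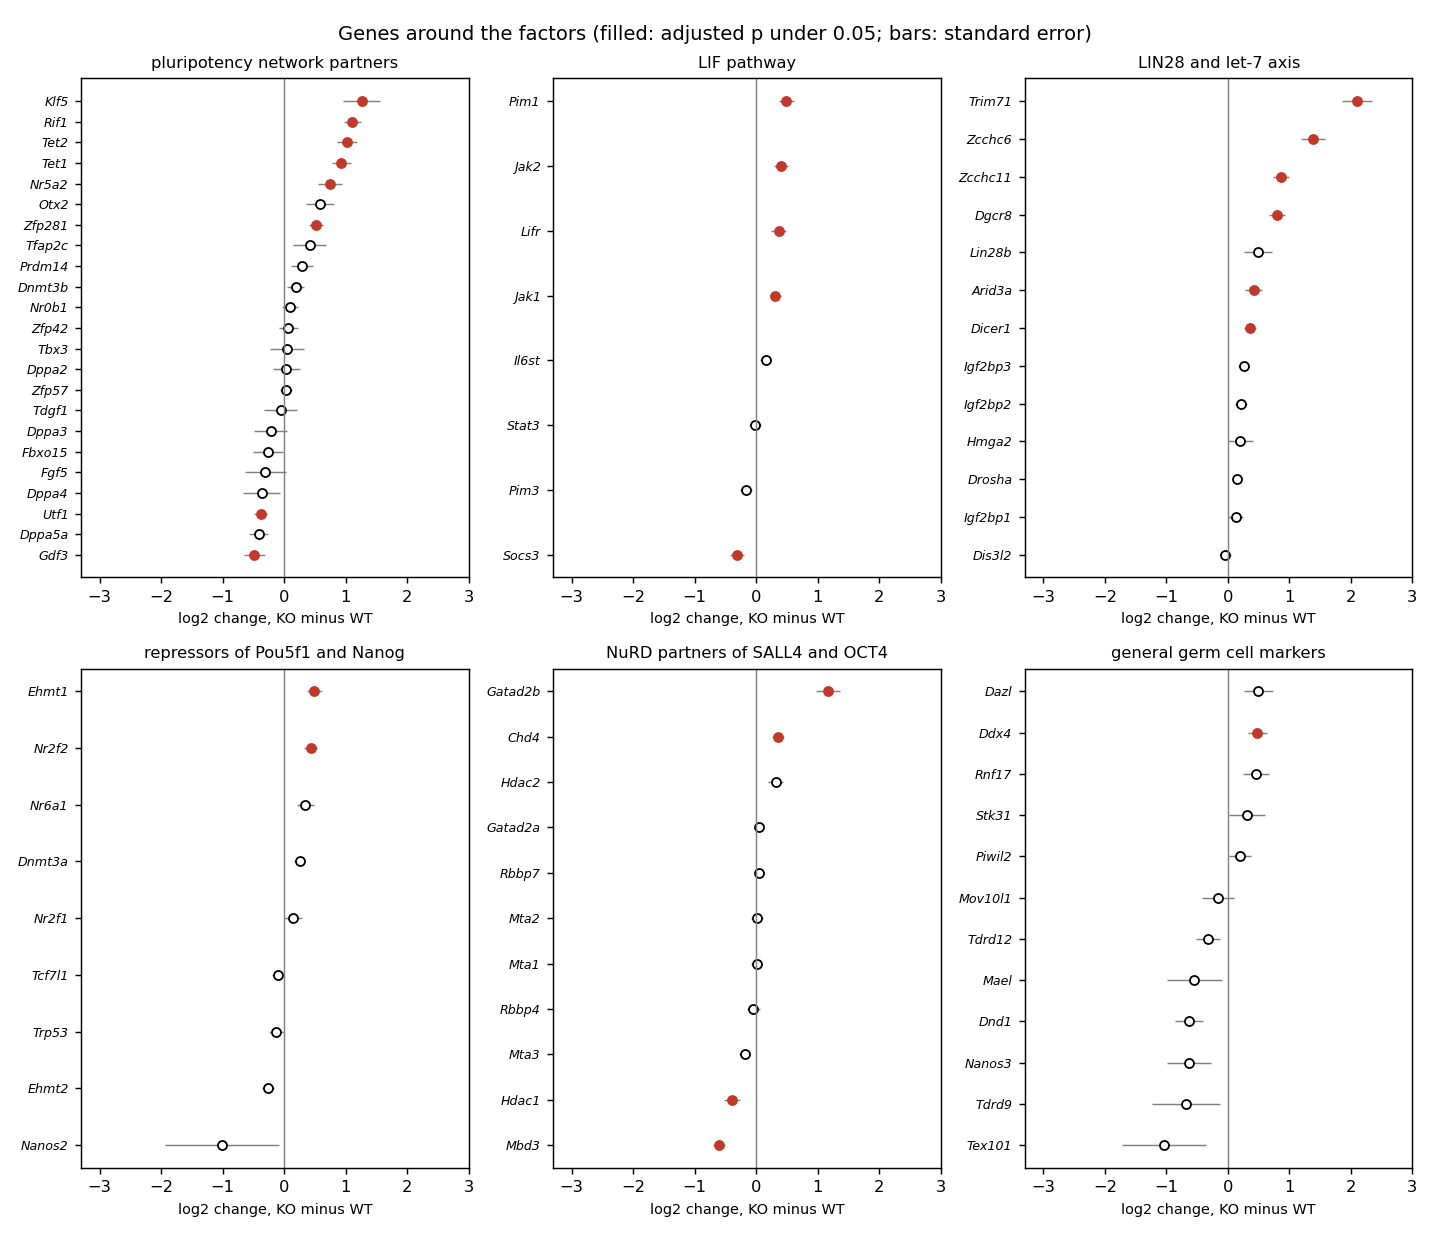
Log2 change, KO minus WT (horizontal axis), with its standard error, of tested genes in 6 lists around the factors, 1 network partner being left out; filled red symbols passed the threshold. Trim71 has the highest change shown, at 2.10, and in the general germ cell list 1 of 12 markers is filled.

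In the LIF pathway, which feeds Klf4 and Tfcp2l1 through STAT3 in mouse embryonic stem cells, 4 of 8 tested genes rose and 1 fell, with a median log2 change of 0.24. The share of all genes was 17.3% higher and 17% lower. Pim1, Jak2, Lifr and Jak1 rose by 0.49, 0.40, 0.37 and 0.32, and Socs3, the feedback inhibitor, fell by 0.31. Stat3 held 1078, 992 and 1044 in KO and 1047, 1132 and 978 in WT (adjusted p = 0.896). With the trend removed Pim1 was past the threshold (0.72, adjusted p = 0.00936), while Jak2, Lifr, Jak1 and Socs3 were not, and Il6st, the shared signalling subunit, was lower (log2 -0.29, adjusted p = 0.0369). On the values as deposited, the calls of Pim1, Jak2, Lifr, Jak1 and Socs3 ended without WT library 4. Without KO library 7 or WT library 1, 2 genes of the list rose. The call of Socs3 ended with any one library left out except WT library 1. The median log2 change of the list was -0.004 with the trend removed, where 6.08% of all genes were higher. Lif was below the filter.

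Among genes known to repress Pou5f1 or Nanog, 2 of 9 tested rose, Ehmt1 (0.49, adjusted p = 0.0116) and Nr2f2 (0.43, adjusted p = 0.0102). In limma's test 0 fell, with 1 lower at an unadjusted p under 0.05. Of 11 NuRD subunits, 2 rose and 2 fell, with a median log2 change of 0.02. For the repressors and the NuRD subunits alike, the share of all genes was 17.3% higher and 17% lower. Gatad2b held 133, 167 and 170 in KO and 58.5, 76.4 and 71.1 in WT (log2 1.18, adjusted p = 0.00247). Mbd3 averaged 6369.9 ± 533 in KO and 9698 ± 689.8 in WT (SD, n = 3 each; log2 -0.61, adjusted p = 0.00222), Hdac1 fell by 0.39, and Chd4 rose by 0.36. With the trend removed, Gatad2b was past the threshold, Chd4, Hdac1 and Mbd3 (log2 -0.10, adjusted p = 0.306) were not, nor were the repressors Ehmt1 (0.25, adjusted p = 0.0946) and Nr2f2 (0.12, adjusted p = 0.306), and Rbbp4 was lower (log2 -0.41, adjusted p = 0.0143). On the values as deposited, 1 NuRD subunit was higher without WT library 1 or WT library 4. Without KO library 7, KO library 8, WT library 3 or WT library 4, 1 was lower. For the repressors, 1 rose without WT library 4.

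Of 22 tested paralogs of the factors, 9 rose and 2 fell, beside 17.3% and 17% of all genes, with a median log2 change of 0.38. Klf9 rose by 1.47, Sall1 by 1.18, and Klf1, a factor of erythroid cells, fell by 1.46 (84.7, 67.4 and 167 in KO, against 343, 168 and 349 in WT; adjusted p = 0.0111). After removal of the trend Klf9 and Klf15 passed, both higher, and Klf1 did not. The median of the list was then 0.20, and 6.08% of all genes were higher. Klf15 is named here after its values were seen. On the values as deposited, leaving out KO library 5, KO library 7 or WT library 4 left 4 paralogs higher, and leaving out WT library 3 left 5.

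Markers of the cells that share the gonad are given beside the 34.3% of all genes that passed. Of 12 general germ cell markers 1 rose, Ddx4 (log2 0.48, adjusted p = 0.0370), and the median log2 change was -0.24. In limma's test 0 fell, with 1 lower at an unadjusted p under 0.05. Without WT library 1, 4 rose, without WT library 3, 3 fell, and Ddx4 did not pass without KO library 5, KO library 7, WT library 3 or WT library 4. Their summed value was 17432 to 30403 in KO and 14411 to 25283 in WT. Of 7 macrophage markers 5 fell, C1qa, C1qb and C1qc by 1.09, 1.15 and 1.03, with summed values of 1314 to 1518 in KO and 2273 to 3172 in WT, fully apart. With KO library 5, KO library 8 or WT library 1 left out, 3 of them fell. Of 10 Sertoli cell markers 2 fell, Etd and Clu (log2 -0.82 and -0.74), with sums of 89510 to 122132 in KO and 123029 to 149389 in WT. Without KO library 5 or WT library 4, 1 Sertoli marker fell, and without WT library 1, 4 fell. Of 7 fetal Leydig cell markers 3 fell, Ren1, Fdx1 and Hsd3b1 (log2 -0.84, -0.42 and -0.32), with sums of 51839 to 73178 in KO and 68806.5 to 111919 in WT. All 3 calls ended without KO library 5, WT library 1 or WT library 4, 1 Leydig marker fell without KO library 7, and 5 fell without WT library 3. Of 6 neural crest and Schwann cell markers 1 rose, Erbb3 (1.84), and of 8 mesonephric epithelium markers 1 rose, Lhx1 (1.51). Sox2 is also expressed in neural crest derivatives and Tfcp2l1 in epithelium. The summed values were 1483 to 1648 in KO and 1244 to 1424 in WT for neural crest and Schwann cells, and 1798 to 2086 in KO and 1596 to 2244 in WT for mesonephric epithelium. With the length and GC trend removed, C1qa, C1qb and C1qc still passed, at -0.47, -0.57 and -0.48, as did Csf1r, Etd, Fdx1, Erbb3 and Lhx1, and the Sertoli marker Fgf9 was lower (-0.54, adjusted p = 0.0153). Fcgr1, Ddx4, Clu, Ren1 and Hsd3b1 then did not (adjusted p from 0.114 to 0.245). In every one of these lists 0 markers were at 0 in all libraries. The part of any of these cells in the values of the 10 factors was not tested.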

How the data were processed

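The deposited table holds, per gene, a signal made by the authors, upper-quartile normalised pseudo-counts, which are fractional. CASAVA 1.8.2, edgeR 2.6.2 and mm9 are named per the submitters' processing notes, without their roles. Aligner and annotation: not given in the sources used here. All 6 columns matched a library by name, which left 0 unmatched, and 0 pairs of libraries held identical values. Upper quartiles were 1484 or 1485. Whole reads were not recovered, so no counting interval is given.

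Values were analysed as log2(value + 1), which understates changes of low genes, with limma 3.58.1 in R 4.3.3 (mean-dependent prior, two-sided, Benjamini-Hochberg over the 15116 genes with at least 10 in at least 3 libraries). Python 3.11.15 with matplotlib 3.10.9 made the plots. Length and GC content came from the longest protein-coding GENCODE vM21 transcript, matched by NCBI gene ID for 14449 genes (95.6%) and fitted by natural splines of 4 degrees of freedom each. The fit was tested on simulated data. The 10 genes, the 15 gene lists and the alternatives were chosen with earlier results of these data known. Genes of a list were named if past the threshold with the highest absolute log2 change, up to 3 a list; other called genes are named to complete counts, and 1 network partner is counted but not reported here. Alternatives were other pseudocounts, filters, scalings, priors, weights and thresholds, trend removal, and each library left out; those on ratios without WT library 1 or with the trend removed were chosen after seeing the data.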

Additional observations from a re-analysis of the deposited data

How the results depend on the processing

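Counts over the 10 factors depended on the libraries and on the scaling. With 1 library left out, 1 to 3 factors were higher in KO and 0 to 1 lower; 1 was higher without KO library 5 or KO library 7. Library weights gave 5 higher and 1 lower, a filter at 50 gave 1 lower (Pou5f1; Nanog was not tested there), a threshold of 0.1 gave 2 lower, and scaling to the germ cell markers gave 0 higher, with 0 at an unadjusted p under 0.05 in limma. That scaling put the median log2 change of all genes at 0.14, against -0.03 as deposited, and 82.5% of its calls were higher. Sox2 was past the threshold in every setting run except that scaling, where its log2 change was 0.71 (SE 0.51). Directions turned for Pou5f1 (log2 0.22) and Klf2 (0.21) with the length and GC trend removed, and were 0.30 and 0.14 with WT library 1 also left out. The log2 change of Tfcp2l1 was 0.046 with germ cell scaling and 0.072 with library weights, and ran from -0.30 to 0.083 with 1 library left out. The cause of these turns was not tested.

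Over all genes, 2609 were higher and 2571 lower in KO. The counts were 85 and 18 with germ cell scaling, 878 and 959 with the trend removed, 842 and 881 with WT library 1 also left out, 3511 and 1690 with equal totals, and 1635 to 2495 and 1397 to 2546 with 1 library left out, lowest without WT library 4. Over the genes of the other lists, the counts were 2 and 0 with germ cell scaling, 15 and 10 with the trend removed, and 14 and 9 with WT library 1 also left out. Lower list genes numbered 9 with equal totals, 34 with library weights and 10 without the mean-dependent prior. With 1 library left out, 19 to 33 list genes were higher and 7 to 21 lower. Ratios lay wholly above WT for 2 factors with germ cell markers as the base and for 7 with Pou5f1 as the base; wholly below were 2 without WT library 1 and 2 with Pou5f1 as the base and the trend removed. No paired analysis was possible because the labels do not say which embryos shared a litter. The depth is unknown, so the precision of low values such as Nanog cannot be set.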
